A study of Solanum lycopersicum with 26 samples.

Results

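The effect of a warmer ripening period on the tomato embryo was measured in dim light, by comparing the embryo libraries of HT_DL with those of ST_DL. All seeds were of Solanum lycopersicum cv. Moneymaker, from fruits that were detached at the breaker stage, 63 days after flowering, and ripened off the plant for 7 days in a growth chamber, so that seeds were 70 days old when embryo and endosperm were dissected. Both groups received 25 µE of light for 16 h a day. The day and night temperatures of ST_DL were standard, at 23 °C and 20 °C, and those of HT_DL were high, at 32 °C and 26 °C. The comparison uses 7 of the 26 libraries of the study, 4 of HT_DL and 3 of ST_DL, chosen by the tissue, temperature and light in their labels. The methods of the study describe 3 replicates, while the labels give 4 for HT_DL embryos. Each library is a pool of seeds taken from more than 1 fruit, no label says that the pools came from separate plants, and the p-values measure the spread between these pools. The embryo libraries of the same temperatures at 300 µE, called HT_HL and ST_HL, and the endosperm libraries of HT_DL and ST_DL served to estimate the spread, to mark the tissues and to test differences between heat effects.

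In a tomato seed the embryo lies within a living endosperm. During the last phase of seed development the embryo has filled its cells with storage protein and with oil, which is held in lipid bodies, and it acquires tolerance to drying, dormancy and the vigor with which it later germinates. Plant cells that become too warm typically make chaperones, proteins that keep other proteins folded, and adjust the lipids of their membranes. The mRNA found in a mature embryo is in part a store that is carried into germination.

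Embryo libraries were sequenced to similar depth, with total counts between 20799550 and 20872492 in ST_DL and between 20752017 and 21519318 in HT_DL. They were not alike within HT_DL. Replicates 2 and 3 of HT_DL had 18811 and 19034 genes with at least 10 counts, where replicates 1 and 4 had 17350 and 17193 and the ST_DL libraries between 17023 and 17211. In a principal component analysis of the 14 embryo libraries, HT_DL replicates 2 and 3 had scores of 124 and 125 on the first axis, which held 64.3% of the variance, against -49.2 and -51.9 for replicates 1 and 4 and between -56.8 and -27.4 for ST_DL. ST_HL replicates 2 and 3 lay beside them at high scores. On the second axis, with 12.7% of the variance, all 4 HT_DL libraries lay between -13.3 and 3.75 and all 3 ST_DL libraries between -51.3 and -43.4, so that HT_DL and ST_DL did not overlap there. The HT_HL libraries were higher again, from 44.1 to 69.4. The ST_HL libraries, at standard temperature, lay from -20.1 to 4.81, beside the HT_DL libraries. This axis thus did not order the conditions by temperature alone. No label names a difference between the HT_DL replicates, and values for the pairs apart are given below where they change a call.

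**Figure D1:**
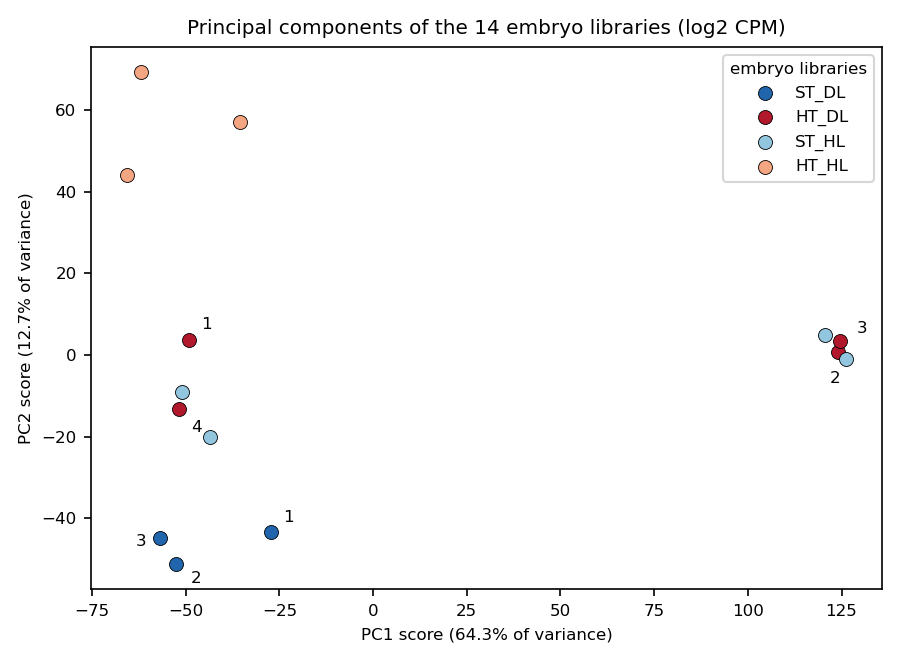
Scores of the 14 embryo libraries on the first (x axis) and second (y axis) principal component of log2 CPM, coloured by condition, with replicate numbers beside the ST_DL and HT_DL libraries. HT_DL replicates 2 and 3 stand at about 124 on the x axis, away from replicates 1 and 4, while on the y axis all HT_DL libraries lie above all ST_DL libraries.

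The labelled tissue was checked with genes that mark either tissue in the HT_HL libraries, which are not part of the comparison. The 63 embryo-rich genes summed to 18120, 17570 and 17610 CPM, that is counts scaled to library size, in ST_DL embryos and 16440, 12330, 13350 and 16900 CPM in HT_DL embryos, against at most 595.5 CPM in endosperm libraries of the same conditions. The 291 endosperm-rich genes summed to 2249, 1456 and 1252 CPM in ST_DL embryos and to 1130, 877.9, 1299 and 1053 CPM in HT_DL embryos, against 85050 to 102100 CPM in the endosperm. All embryo libraries thus carried little endosperm RNA, with the highest level in ST_DL replicate 1. HT_DL over ST_DL was 0.660 for the endosperm-rich sum (two-sided exact permutation p = 0.0571, where 4 against 3 libraries allow 0.0286) and 0.831 for the embryo-rich sum (exact p = 0.0857). The embryo-rich ratio was 0.938 without HT_DL replicates 2 and 3 and 0.723 without replicates 1 and 4. The median of the embryo-rich genes went the other way from their sum. It was 30.4, 28.7 and 28.2 CPM in ST_DL and 36.8, 35.6, 38.3 and 35.5 CPM in HT_DL. Of the genes called below, 4 of those that fell were endosperm-rich and 4 of those that rose were embryo-rich. The part of these differences in the other results was not tested.

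Among changes of more than 2-fold, heat in dim light raised more genes than it lowered. Of 19253 genes tested, 161 were higher in HT_DL (0.836%) and 76 were lower (0.395%) by edgeR's quasi-likelihood test. These genes, called DEGs here, had an adjusted p (Benjamini-Hochberg) under 0.05 and a log2 fold change of more than 1 in size. The median size of the log2 fold change was 1.33 among the DEGs that rose and 1.38 among those that fell, and 40 and 17 of them passed 2. The median over all genes tested was 0.07. By adjusted p alone, with no fold threshold, 374 genes rose (1.94%) and 481 fell (2.5%), so that many decreases were smaller than 2-fold. In 160 of the 161 and 75 of the 76 DEGs the HT_DL and ST_DL libraries did not overlap in CPM, as was the case for 2221 genes with higher values (11.5%) and 2147 with lower values (11.2%) among all tested. Leaving out 1 library moved the counts strongly. Without ST_DL replicate 1, 2 or 3 they were 44, 31 and 53 genes up and 33, 22 and 38 down, without HT_DL replicate 2 they were 91 and 42, without HT_DL replicate 3 they were 66 and 34, and without HT_DL replicate 4 there were 250 up. RNA was measured in whole embryos, and fewer cells of a type and less RNA per cell cannot be told apart.

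**Figure D2:**
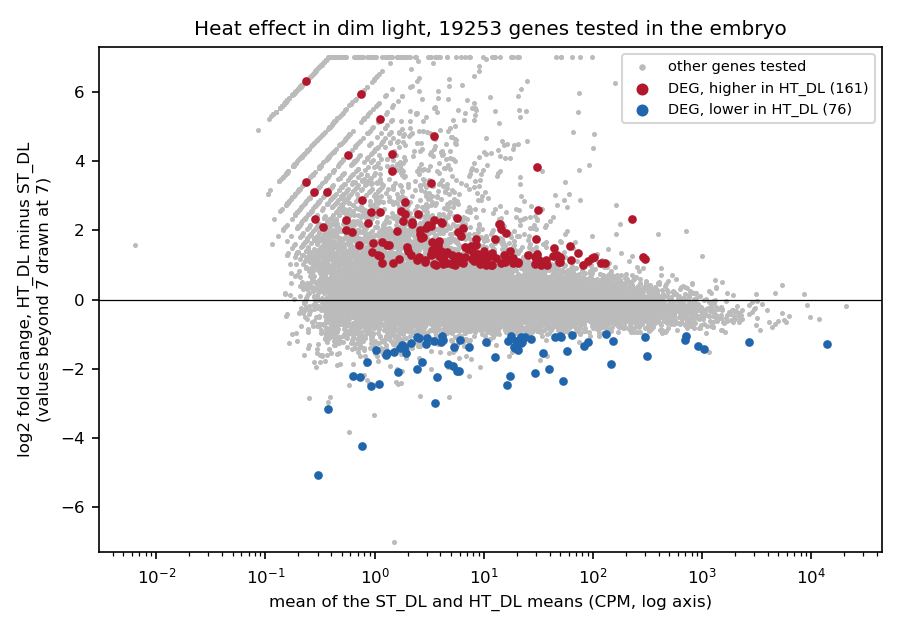
Log2 fold change of HT_DL over ST_DL (y axis, fitted by edgeR) against the mean level of each gene in CPM (x axis, log scale), for all genes tested. DEGs are coloured, 161 higher and 76 lower in HT_DL, and most of them lie within 2 on the y axis. Many genes with larger positive values, in grey, were not called.

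The DEGs were examined with the HT_DL pairs apart. With replicates 1 and 4 as the only HT_DL libraries, 60 genes rose and 27 fell. With replicates 2 and 3 as the only ones, 1730 rose and 286 fell. These fits share the 3 ST_DL libraries. Called in the fit of all libraries and in both fits of a pair were 34 of the 161 genes that rose and 19 of the 76 that fell, which are described first because their change does not rest on either pair. For all 161 and all 76 DEGs the sign was the same in each pair. This is no separate evidence, because the DEGs were chosen on the same libraries and nearly all had no overlap. The genes with the largest changes named below were also picked for having no overlap between HT_DL and ST_DL libraries. The fits of a pair given here and below also hold the HT_HL and ST_HL embryo libraries. With ST_HL replicates 2 and 3 also left out, HT_DL replicates 1 and 4 gave 142 genes up and 80 down. Against ST_DL alone, replicates 1 and 4 gave 178 up and 136 down, and replicates 2 and 3 gave 3147 and 527. Calls in a pair thus depend on which other libraries are fitted.

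Solyc04g082050.3.1 was among the genes that rose in both pairs. It was at 6.01, 3.57 and 2.73 CPM in the ST_DL embryos and at 55.9, 53.1, 57.4 and 65.0 CPM in the HT_DL embryos. The lowest HT_DL library was thus far above the highest ST_DL library, and both pairs were at the same level. Its log2 fold change was 3.82 ± 0.40 (SE), with an adjusted p of 0.00101 in edgeR, and it kept the call in 28 of 29 alternative analyses. Solyc04g072160.3.1 was at 6.61, 9.38 and 10.5 CPM in ST_DL and at 101, 30.1, 36.1 and 47.0 CPM in HT_DL, a log2 fold change of 2.59 ± 0.40. Solyc03g044060.4.1 was at 7.16, 6.29 and 6.26 CPM in ST_DL and at 34.0, 18.9, 22.5 and 24.9 CPM in HT_DL, with a log2 fold change of 1.93 ± 0.26. In both of these genes HT_DL replicate 1 had the highest value of the 7 libraries. The files and tables used here give none of these IDs a description.

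HT_DL replicate 1 also led in a pair of genes with neighbouring IDs. Solyc08g062437.1.1 was at 62.8, 79.4 and 86.5 CPM in ST_DL and at 730, 182, 235 and 369 CPM in HT_DL (log2 fold change 2.31 ± 0.40, adjusted p = 0.00968 in edgeR). Solyc08g062340.3.1 was at 5.14, 4.58 and 5.03 CPM in ST_DL and at 51.7, 9.25, 14 and 15.1 CPM in HT_DL (2.19 ± 0.56, adjusted p = 0.0459). Replicate 1 was above the other HT_DL libraries in both, most in Solyc08g062340.3.1, whose call was lost in 12 of 29 alternatives. Solyc01g091260.3.1 had the same shape, at 6.01, 5.70 and 5.19 CPM in ST_DL and 38.2, 17.8, 18.8 and 17.1 CPM in HT_DL, with a log2 fold change of 2.03 ± 0.31. All ST_DL libraries were below all HT_DL libraries in each of these genes, as the rule by which they were named required.

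Other genes with large increases were not called with replicates 1 and 4 as the only HT_DL libraries. Solyc05g052270.3.1 was at 5.90, 5.65 and 3.80 CPM in ST_DL and at 15.3, 28.3, 34.9 and 13.7 CPM in HT_DL, a log2 fold change of 2.17 ± 0.49. Its adjusted p was 0.0281 in the edgeR fit of all libraries and 0.19 without HT_DL replicates 2 and 3. Solyc04g053050.4.1 was at 2.46, 3.20 and 1.76 CPM in ST_DL and at 12.7, 12.4, 9.44 and 6.86 CPM in HT_DL, a log2 fold change of 2.06 ± 0.36. Without HT_DL replicates 2 and 3 this was 1.98, with an adjusted p of 0.0537 in edgeR. The gene was close to absent from the endosperm, with means of 0 CPM in ST_DL and 0.117 CPM in HT_DL. In both genes all HT_DL libraries were above all ST_DL libraries, which the naming rule required.

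Genes that fell included several with a loss of more than 4-fold. Solyc09g091600.4.1 was at 30.3, 27.5 and 25.6 CPM in ST_DL and at 1.69, 7.50, 9.08 and 1.73 CPM in HT_DL (log2 fold change -2.47 ± 0.49, adjusted p = 0.0177 in edgeR), with the lowest values in replicates 1 and 4. Solyc02g061940.4.1 was even across pairs, at 23.1, 33.3 and 28.9 CPM in ST_DL and 6.97, 5.16, 4.97 and 7.47 CPM in HT_DL (-2.21 ± 0.21, adjusted p = 0.000543). Solyc02g032860.3.1 was at 54.4, 45.6 and 44.7 CPM in ST_DL and at 6.14, 11.3, 16.0 and 10.6 CPM in HT_DL (-2.13 ± 0.29). The HT_DL libraries were below the ST_DL libraries in each of these genes without overlap, which the naming rule required. All of these genes were called in both pairs. Solyc03g044600.2.1 was at 31.8, 87.6 and 70.8 CPM in ST_DL and 15, 13.9, 19.3 and 14.5 CPM in HT_DL (-2.01 ± 0.29), with ST_DL replicate 1 the lowest of its group.

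At higher levels, Solyc02g086970.4.1 was at 534, 468 and 416 CPM in ST_DL and at 142, 156, 130 and 176 CPM in HT_DL, a log2 fold change of -1.65 ± 0.22, and it was called in 28 of 29 alternatives. Solyc02g080640.4.1 was at 57.1, 47.7 and 50.8 CPM in ST_DL and at 10.8, 16.3, 24.7 and 18.7 CPM in HT_DL (-1.56 ± 0.27). The 4 HT_DL values were close together in the former and spread more in the latter. Solyc06g061100.4.1 was at 13.3, 17.7 and 27.1 CPM in ST_DL and 8.32, 4.94, 3.71 and 7.42 CPM in HT_DL (-1.67 ± 0.36), and without HT_DL replicates 2 and 3 its log2 fold change was -1.30, with an adjusted p of 0.164 in edgeR. Solyc12g094620.3.1 was one of the endosperm-rich genes. It was at 339, 222 and 126 CPM in ST_DL embryos and at 28.4, 82.5, 96.9 and 41.7 CPM in HT_DL embryos (-1.87 ± 0.41), but at means of 2533 and 5267 CPM in ST_DL and HT_DL endosperm, where it rose.

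The DEGs with the highest CPM, a scale not corrected for transcript length, were named after their values were seen. Solyc09g082340.2.1 was at 26578, 17961 and 14841 CPM in ST_DL embryos and fell to 7238, 7726, 7101 and 10341 CPM in HT_DL embryos (log2 fold change -1.29 ± 0.21, adjusted p = 0.0064 in edgeR). The ST_DL library with the highest value was replicate 1, in which the endosperm-rich sum was also highest. Its endosperm means were 16600 and 13740 CPM in ST_DL and HT_DL, and its difference in the endosperm did not pass the test. In the embryo its log2 fold change was -1.17 without HT_DL replicates 2 and 3 (adjusted p = 0.068). Solyc04g079970.3.1 was at 3978, 3628 and 3685 CPM in ST_DL and at 1752, 1447, 1477 and 1761 CPM in HT_DL (-1.23 ± 0.12). Solyc10g086400.2.1, with the smallest adjusted p of the comparison at 0.000381, was at 1061, 935 and 890 CPM in ST_DL and 420, 417, 397 and 469 CPM in HT_DL (-1.18 ± 0.10). Both were called in each pair, and their replicates lay within a narrow range in either condition. Of the genes that rose, Solyc10g078930.2.1 was at 167, 188 and 196 CPM in ST_DL and at 501, 325, 375 and 458 CPM in HT_DL (1.18 ± 0.15), and without replicates 1 and 4 its log2 fold change was 0.93, under the threshold.

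A description was at hand for 26 DEGs, 19 that rose and 7 that fell, from the MapMan bins and Gene Ontology (GO) terms that the study provides, of which only a portion was used here. The MapMan portion covers photosynthesis, respiration and the metabolism of carbohydrates, amino acids and lipids, and the GO portion covers IDs of chromosomes 0 and 1. Heat shock protein families are not among the bins used here. Of 1199 MapMan IDs tested, 16 rose and 4 fell, or 1.67% against 1.23% of all genes tested.

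A described gene that rose in both pairs carries the GO terms for response to heat, iron ion transport and transport of abscisic acid, the hormone of seed dormancy. This gene, Solyc01g066560.3.1, was at 3.28, 2.51 and 1.93 CPM in ST_DL and at 6.05, 6.96, 7.09 and 6.41 CPM in HT_DL. All HT_DL libraries were close together and above all ST_DL libraries, with a log2 fold change of 1.36 ± 0.20 and an adjusted p of 0.0045 in edgeR. Solyc01g010650.3.1, named after its values were seen, with GO terms for UDP-glucose and UDP-galactose transport in the endoplasmic reticulum and for the unfolded protein response of that compartment, was at 18.1, 15.2 and 18.8 CPM in ST_DL and at 49.3, 39.2, 40.0 and 45.5 CPM in HT_DL. It rose by 1.32 ± 0.15 on the log2 scale and was called in both pairs, as was Solyc01g066560.3.1.

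Genes of sugar nucleotides, the activated sugars from which cell walls and glycoproteins are built, rose in small number. GDP-D-mannose 4,6-dehydratase (MUR1) catalyses the opening step from GDP-mannose to GDP-fucose. Its gene Solyc02g084210.1.1 was at 2.30, 2.45 and 1.55 CPM in ST_DL and 6.63, 4.62, 5.38 and 4.98 CPM in HT_DL (log2 fold change 1.36 ± 0.25). The other MUR1 gene, Solyc03g118270.1.1, was at 9.95, 10.9 and 12 CPM in ST_DL and 18.5, 17.7, 23.9 and 19.4 CPM in HT_DL, a log2 fold change of 0.86 ± 0.13 that passed the adjusted p (0.00508 in edgeR) but not the fold threshold. Both MUR1 genes were higher in every HT_DL library than in any ST_DL library, in either pair. Galacturonokinase, which returns galacturonic acid to the pool of activated sugars, showed a split by pair. Its gene Solyc07g014640.3.1 was at 0.765, 0.586 and 0.588 CPM in ST_DL and at 1.5, 3.55, 3.57 and 1.63 CPM in HT_DL (1.98 ± 0.43), and the log2 fold change was 1.27 without replicates 2 and 3 (adjusted p = 0.207 in edgeR). UDP-D-glucuronic acid decarboxylase, which makes UDP-xylose, fell at Solyc05g054590.4.1, from 16.9, 24.3 and 22.0 CPM to 13.5, 9.56, 10.6 and 12.6 CPM (-0.87 ± 0.21, adjusted p = 0.0386 in edgeR, and 0.241 at -0.69 without HT_DL replicates 2 and 3).

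Genes of amino acid metabolism changed in both directions. Glutamate decarboxylase makes GABA, a non-protein amino acid that accumulates under many stresses. Its gene Solyc03g098240.3.1 was at 125, 118 and 117 CPM in ST_DL and at 38.8, 44.4, 53.4 and 50.9 CPM in HT_DL (log2 fold change -1.35 ± 0.21, adjusted p = 0.00566 in edgeR), and it was called in both pairs. Serine O-acetyltransferase provides the precursor of cysteine. Its gene Solyc02g082850.3.1 fell from 103, 75.5 and 79.4 CPM to 26.8, 22.0, 33.4 and 39.3 CPM (-1.50 ± 0.29). Both genes were low in all 4 HT_DL libraries, and without replicates 2 and 3 the latter was at -1.38 (adjusted p = 0.108). A pair of genes whose enzymes act in branched-chain amino acid synthesis fell by less than 2-fold. Ketol-acid reductoisomerase gene Solyc07g053280.4.1 was at 6266, 5644 and 5348 CPM in ST_DL and 3450, 3512, 3166 and 4025 CPM in HT_DL (-0.70 ± 0.12, adjusted p = 0.0106), and the catalytic subunit of acetolactate synthase, Solyc07g061940.4.1, named after its values were seen, was at 2106, 1965 and 1754 CPM against 1114, 1080, 1113 and 1503 CPM (-0.69 ± 0.14, adjusted p = 0.0184). Without replicates 2 and 3 these were -0.62 and -0.57, with adjusted p of 0.0962 and 0.156.

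Asparagine synthetase makes the amide in which plants transport nitrogen. Its gene Solyc04g055200.3.1 was at 4.43, 3.68 and 3.58 CPM in ST_DL and at 6.58, 14.4, 16.5 and 7.73 CPM in HT_DL (log2 fold change 1.54 ± 0.34, adjusted p = 0.0263 in edgeR). Methionine S-methyltransferase, which makes S-methylmethionine, had Solyc01g102940.3.1 at 4.48, 5.22 and 6.74 CPM in ST_DL and 13.3, 18.4, 17.6 and 8.80 CPM in HT_DL (1.40 ± 0.31). Without HT_DL replicates 2 and 3 the log2 fold changes were 0.88 and 1.01, with adjusted p of 0.194 and 0.195. Tryptophan synthase subunit beta rose evenly at Solyc10g006400.3.1, from 26.7, 23.6 and 22.7 CPM to 37.7, 43.2, 44.6 and 40.0 CPM (0.77 ± 0.11, and 0.67 with an adjusted p of 0.0504 without HT_DL replicates 2 and 3). Of 145 genes of amino acid biosynthesis tested, 4 rose and 2 fell as DEGs, where 0.836% and 0.395% of all genes did. By adjusted p alone 7 rose and 8 fell, where 1.94% and 2.5% of all genes did, and the median log2 fold change was 0.17, against 0.07 for all genes.

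Several DEGs that rose act on lipids. Solyc02g069430.4.1 and Solyc02g069420.4.1 have adjacent IDs and the same annotation as ALA flippases, which move phospholipids between the leaflets of a membrane. The former was at 2.13, 1.92 and 1.5 CPM in ST_DL and 5.66, 6.69, 7.32 and 2.34 CPM in HT_DL (log2 fold change 1.57 ± 0.40), and the latter at 2.57, 2.67 and 1.60 CPM and 5.03, 6.46, 8.09 and 3.76 CPM (1.36 ± 0.32). HT_DL replicate 4 was the lowest of its group in both. Where such genes are near-identical, their counts depend on how reads were divided between them. Solyc03g116730.4.1, a desaturase that adds double bonds to fatty acids, was at 11.3, 12.3 and 12 CPM in ST_DL and at 23.8, 29.8, 25.6 and 19.9 CPM in HT_DL (1.06 ± 0.18, adjusted p = 0.00966 in edgeR). Solyc04g080450.1.1, a 3-ketoacyl-CoA synthase of very-long-chain fatty acids, was at 43.6, 39.2 and 34.4 CPM in ST_DL and 65.8, 109, 107 and 65.0 CPM in HT_DL (1.15 ± 0.23). Solyc07g056320.4.1, a glycerol-3-phosphate acyltransferase, which begins glycerolipid synthesis, was at 28.0, 26.2 and 22.0 CPM against 64.5, 46.3, 45.1 and 48.6 CPM (1.01 ± 0.21), and it is one of the 4 embryo-rich genes that rose. No ST_DL library reached any HT_DL library in these genes. None of the 5 was called without HT_DL replicates 2 and 3, where their log2 fold changes were 1.11, 0.95, 0.88, 0.74 and 1.16 in the order given (adjusted p = 0.281, 0.222, 0.0717, 0.118 and 0.0547). Of 69 glycerolipid genes tested, 46 were higher and 23 lower, where 56.7% of all genes were higher. By adjusted p alone 3 rose and 2 fell, where 1.94% and 2.5% of all genes did. Without HT_DL replicates 2 and 3, 35 of the 69 were higher and 34 lower.

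Solyc05g024160.3.1, subunit E1 beta of the pyruvate dehydrogenase that feeds the tricarboxylic acid (TCA) cycle, was at 411, 386 and 426 CPM in ST_DL and 189, 171, 171 and 243 CPM in HT_DL (log2 fold change -1.08 ± 0.23, adjusted p = 0.0236 in edgeR). Solyc08g078860.4.1, subunit NDUFB8 of NADH dehydrogenase, was at 132, 122 and 127 CPM in ST_DL and 75.7, 73.0, 70.5 and 67.9 CPM in HT_DL (-0.82 ± 0.09, adjusted p = 0.00133). The latter was even across the pairs, at -0.82 without replicates 2 and 3 and without replicates 1 and 4, while the former was at -0.92 without replicates 2 and 3 (adjusted p = 0.18). Another subunit of the same complex, NQO1 at Solyc02g087240.4.1, rose, with 95.9, 101 and 103 CPM in ST_DL and 126, 157, 184 and 154 CPM in HT_DL (0.64 ± 0.13, adjusted p = 0.0171, and 0.11 at 0.49 without replicates 2 and 3). Of 116 genes of oxidative phosphorylation tested, 3 rose and 3 fell by adjusted p alone, shares near the 1.94% and 2.5% of all genes, and their median log2 fold change of 0.07 equalled that of all genes. The only DEG among them was Solyc00g500261.1.1, annotated as subunit ND3, which was at 5.47, 12.4 and 9.57 CPM in ST_DL and 1.94, 1.48, 2.76 and 2.49 CPM in HT_DL (-2.07 ± 0.52), and it was called in neither pair, at -2.04 without replicates 2 and 3 and -2.11 without replicates 1 and 4 (adjusted p = 0.194 and 0.0551).

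Solyc01g058260.4.1, with the term for poly(A) polymerase, was at 254, 193 and 189 CPM in ST_DL and 112, 83.9, 67.4 and 104 CPM in HT_DL (log2 fold change -1.21 ± 0.24). Solyc01g034150.4.1, with terms for DNA polymerase and for copying past DNA damage, was at 69.7, 68.9 and 64.7 CPM in ST_DL and 36.7, 29.5, 27.9 and 36.2 CPM in HT_DL (-1.06 ± 0.17). The HT_DL libraries were all below the ST_DL libraries, and without HT_DL replicates 2 and 3 the log2 fold changes were -0.97 and -0.89, with adjusted p of 0.13 and 0.0758 in edgeR. Close to the fold threshold, 2 genes with adjacent IDs and some of the smallest p-values were lower in every HT_DL library. Solyc01g008970.4.1, with terms for mRNA stabilization and abscisic acid signalling, was at 1395, 1466 and 1443 CPM in ST_DL and 713, 665, 701 and 842 CPM in HT_DL (-0.97 ± 0.10, adjusted p = 0.00101 in edgeR). Solyc01g008960.3.1, with the term for binding of small interfering RNA, was at 1997, 1938 and 1966 CPM against 1109, 948, 1081 and 1145 CPM (-0.88 ± 0.10, adjusted p = 0.00133).

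**Figure D3:**
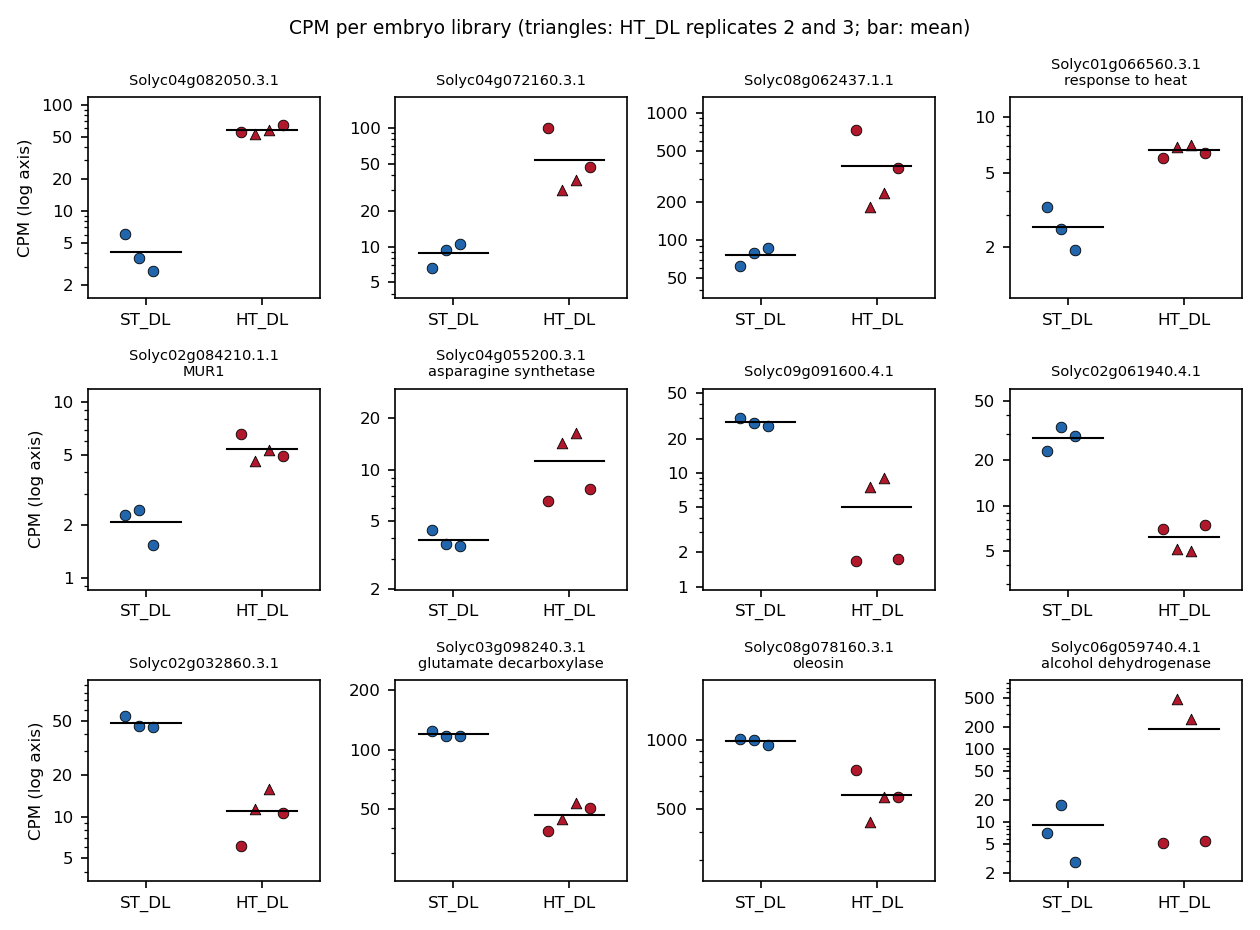
CPM of 12 genes in each embryo library (y axis, log scale, one scale per panel) in ST_DL and HT_DL, with HT_DL replicates 2 and 3 as triangles and the mean as a bar. In Solyc04g082050.3.1, Solyc02g061940.4.1 and the glutamate decarboxylase gene all HT_DL libraries stand apart from ST_DL, whereas the alcohol dehydrogenase gene is high only in the triangles, at 487 and 264 CPM.

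Gene groups of the annotation were then described by their counts and medians, with no test of a group. Lipid bodies store the oil of the embryo and are coated by oleosins, caleosins and steroleosins. Of 24 genes of lipid bodies tested, 20 were lower in HT_DL, where 43.3% of all genes were lower. In 15 of them every HT_DL library was below every ST_DL library, where this held for 11.2% of all genes, and 1 was higher without overlap. None of the 24 was a DEG in edgeR, and 3 fell by adjusted p alone, where 2.5% of all genes did. The median log2 fold change was -0.50, against 0.07 for all genes, and it was -0.31 without HT_DL replicates 2 and 3 and -0.69 without replicates 1 and 4. Their summed level was 12288, 11555 and 11836 CPM in ST_DL and 9606, 6019, 7511 and 9639 CPM in HT_DL, so that all HT_DL libraries were lower and replicates 2 and 3 the lowest. Among oleosins 9 of 10 genes were lower, and among steroleosins all 4, by 0.43 to 0.64 on the log2 scale. In high light the median log2 fold change of the group, HT_HL over ST_HL, was -0.09, against -0.07 for all genes. The test of a difference between the lights, described below, passed the adjusted p at 0 of the 24 genes.

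The oleosin gene Solyc08g078160.3.1 was at 1010, 1005 and 953 CPM in ST_DL and at 741, 439, 564 and 567 CPM in HT_DL (log2 fold change -0.78 ± 0.15, adjusted p = 0.0162 in edgeR). The oleosin gene Solyc06g034040.1.1 fell from 1351, 1035 and 1290 CPM to 736, 642, 748 and 819 CPM (-0.73 ± 0.19, adjusted p = 0.0447). The steroleosin gene Solyc06g064650.4.1 fell from 302, 266 and 253 CPM to 178, 160, 171 and 207 CPM (-0.61 ± 0.15, adjusted p = 0.0451). All 3 had no overlap between the conditions. Without HT_DL replicates 2 and 3 their log2 fold changes were -0.60, -0.66 and -0.51, with adjusted p of 0.0951, 0.229 and 0.258 in edgeR. In high light at standard temperature (ST_HL) their means were 669, 803 and 185 CPM. In HT_HL they were 639, 735 and 170 CPM, so that ST_DL had the highest mean of all conditions in each of them. The exceptions to the direction included the caleosin gene Solyc01g005410.4.1, at 12.2, 16.8 and 12.7 CPM in ST_DL and 31.4, 31.2, 38.6 and 21.5 CPM in HT_DL (1.14 ± 0.32, adjusted p = 0.0622). The seipin gene Solyc07g062230.4.1, of a protein at which lipid bodies form, was also singled out after its values were seen. It had 0 CPM in all ST_DL libraries and in HT_DL replicates 1 and 4, but 94.1 and 74.5 CPM in replicates 2 and 3.

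Chaperones of the plastid were at hand as the Cpn60 chaperonin and its co-chaperone CPN20, which fold Rubisco and other plastid proteins. The Cpn60 subunit beta genes Solyc01g028810.3.1 and Solyc03g120850.4.1 rose by adjusted p. The former was at 1108, 1072 and 1023 CPM in ST_DL and 1530, 1522, 1436 and 1817 CPM in HT_DL (log2 fold change 0.56 ± 0.11, adjusted p = 0.0166 in edgeR), and the latter at 129, 104 and 104 CPM and 163, 209, 195 and 167 CPM (0.71 ± 0.15, adjusted p = 0.0206). The CPN20 genes rose too. Solyc07g042250.3.1 was at 57.8, 57.2 and 62.8 CPM in ST_DL and 140, 161, 160 and 87.4 CPM in HT_DL (1.21 ± 0.22), and Solyc12g009250.3.1, named after its values were seen, at 70.3, 70.7 and 77.5 CPM and 121, 108, 121 and 92.3 CPM (0.60 ± 0.13). No ST_DL library reached an HT_DL library in these 4 genes. Without HT_DL replicates 2 and 3 the last 3 of them were at 0.56, 0.94 and 0.55 (adjusted p = 0.152, 0.0948 and 0.133). Of the 6 Cpn60 genes tested, 5 were higher, with a median of 0.46, and 2 passed the adjusted p. This median was 0.16 without HT_DL replicates 2 and 3 and 0.65 without replicates 1 and 4. Of 8 genes with the GO term response to heat that were tested, 3 were higher and 5 lower. Their median was -0.15, and Solyc01g066560.3.1 was the only DEG. Among all genes tested 56.7% were higher, 1.94% rose by adjusted p, 0.836% rose as DEGs, and the median was 0.07.

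The medians of several metabolic groups differed between the pairs of HT_DL libraries. Genes of fatty acid biosynthesis had a median of 0.60, with 72 of 94 higher, where all genes had a median of 0.07 and 56.7% were higher. The median of the group was -0.03 without HT_DL replicates 2 and 3 and 0.92 without replicates 1 and 4. Nucleotide sugar genes had medians of 0.63, 0.10 and 0.91 in the same order, and photosystem and electron transport genes 0.31, 0 and 0.50. In both HT_DL replicates 2 and 3 the level was more than 2-fold above the highest ST_DL library for 38 of the 94 fatty acid genes, 23 of the 64 nucleotide sugar genes and 39 of the 140 photosystem genes. In replicates 1 and 4 this was so for 1, 1 and 0 of them. Among all genes tested it was so for 13.2% in replicates 2 and 3 and for 0.857% in replicates 1 and 4. Genes with the GO term for structural constituents of the ribosome had medians of -0.38, -0.22 and -0.74. Of these genes 26 of 40 were lower, where 43.3% of all genes were, but few of them stood apart from ST_DL. Only 1 fell by adjusted p (2.5%, as among all genes) and 1 was lower without overlap, and 10.0% lay below all ST_DL libraries in both replicates 2 and 3 and 15% in both replicates 1 and 4, against 28.8% and 19.4% of all genes.

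Fermentation, which regenerates NAD+ when oxygen is short, showed the split most plainly. The alcohol dehydrogenase gene Solyc06g059740.4.1 was at 7.16, 17.4 and 2.83 CPM in ST_DL, at 5.18 and 5.64 CPM in HT_DL replicates 1 and 4 and at 487 and 264 CPM in replicates 2 and 3. The pyruvate decarboxylase gene Solyc09g005110.3.1 was at 1.91, 0.586 and 0.642 CPM in ST_DL, at 0.532 and 0.102 CPM in replicates 1 and 4 and at 35.1 and 22.8 CPM in replicates 2 and 3. Neither passed the test, with adjusted p of 0.17 and 0.174 in edgeR. Of 7 fermentation genes tested none was a DEG and none passed the adjusted p, and 6 of them were above all ST_DL libraries in both replicates 2 and 3 but none in both replicates 1 and 4, against 37.0% and 20.7% of all genes. A gene of GABA breakdown, GABA pyruvate transaminase at Solyc12g006470.2.1, was named after its values were seen, with 9.02, 5.92 and 6.31 CPM in ST_DL and 26.9, 365, 374 and 15.4 CPM in HT_DL (log2 fold change 4.78 ± 1.38, adjusted p = 0.0691).

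**Figure D4:**
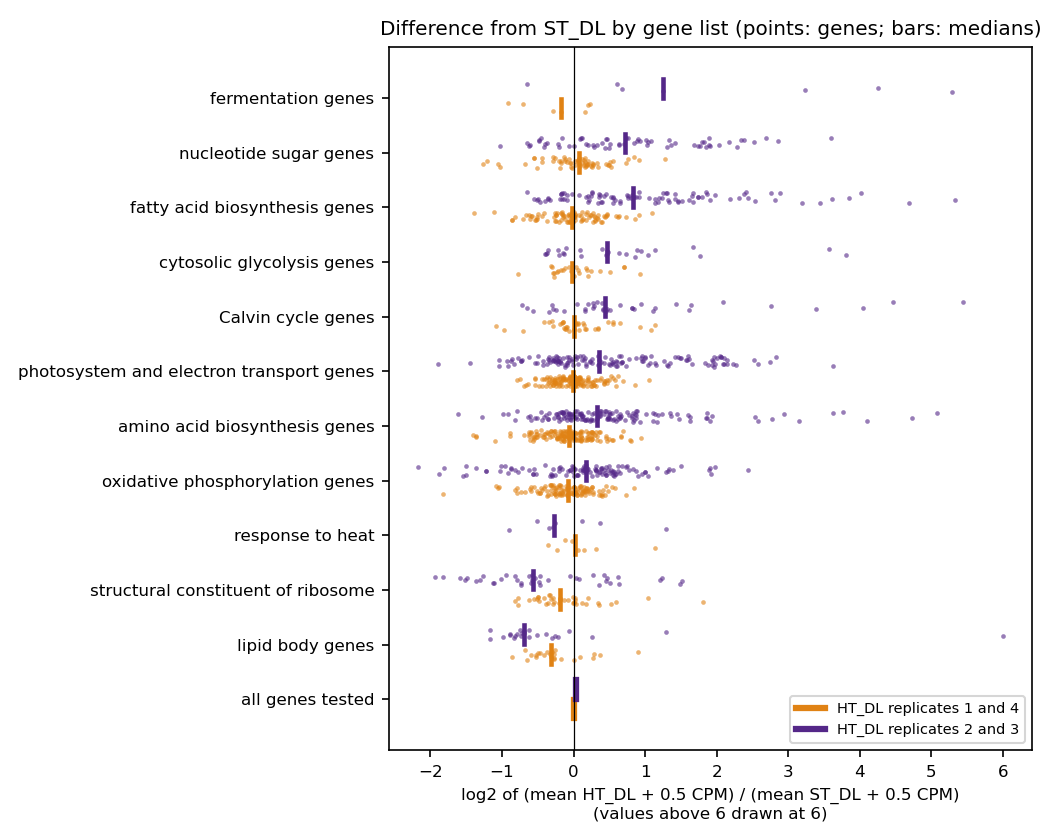
Difference from ST_DL for each gene of 11 groups (points) and the group median (bars), as log2 of mean HT_DL plus 0.5 CPM over mean ST_DL plus 0.5 CPM (x axis), for HT_DL replicates 1 and 4 (orange) and 2 and 3 (purple). Medians of most metabolic groups lie near 0 in orange and to the right in purple, while the lipid body and ribosome groups lie to the left in both.

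The same rise in temperature was applied in high light, and the interaction tested whether the embryo's heat effect in dim light differed from that in high light. The 2 heat effects share no library. In high light, 275 genes were higher in HT_HL than in ST_HL (1.43%) and 657 were lower (3.41%). Of the 161 genes that rose in dim light, 27 also rose in high light and 2 fell, which is 16.8% of the dim-light and 9.82% of the high-light increases. Of the 76 that fell in dim light, 26 fell in high light and none rose (by edgeR), which is 34.2% and 3.96% of the decreases. The sign was the same in both lights for 65.8% of the genes that rose and 89.5% of those that fell, against 47.4% of all genes, and the median high-light log2 fold changes were 0.33 and -0.87. Among the 34 and 19 DEGs called in both pairs, 16 and 8 were called in the same direction in high light.

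The heat effect was more positive in dim light at 330 genes (1.71%) and more negative at 299 (1.55%) by adjusted p in edgeR. These counts rested on single libraries. Leaving out either replicate 1 or replicate 3 of ST_DL gave 0 and 0 (3844 and 2141, and 3482 and 1992, at an unadjusted p under 0.05), replicate 2 of ST_DL 9 and 17, and HT_HL replicate 1 gave 0 and 1. There were at most 34 and 48 without replicate 2 or 3 of HT_DL or ST_HL. Without replicate 1 or 4 of HT_DL or ST_HL they were between 1602 and 2516 higher and between 641 and 1215 lower. Without HT_DL replicates 2 and 3 there were 1 and 0. ST_HL replicates 2 and 3 share the high scores of HT_DL replicates 2 and 3 and enter the high-light effect with the opposite sign.

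Of the 237 DEGs, 46 had an interaction, 41 that rose and 5 that fell, where 1.71% of all genes were higher and 1.55% lower. The DEGs were chosen for their dim-light difference, which is also part of the interaction, so this count is no finding about them. Solyc04g082050.3.1 rose in both lights, with log2 fold changes of 3.82 in dim and 1.53 in high light, and its interaction was 2.29 (adjusted p = 0.0401 in edgeR). Its high-light means were 30.8 CPM in ST_HL and 88.7 CPM in HT_HL, so that ST_DL was the lowest of the 4 conditions. Asparagine synthetase Solyc04g055200.3.1 was 1.54 in dim and -0.47 in high light, and 3-ketoacyl-CoA synthase Solyc04g080450.1.1 was 1.15 and -0.61, with interactions of 2.01 and 1.77 (adjusted p = 0.0455 and 0.0263). Within HT_DL both were higher in replicates 2 and 3 than in replicates 1 and 4.

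Among the annotated genes with the smallest interaction p, some were even across the HT_DL libraries. Solyc01g010050.3.1, with the term for adenosylmethionine decarboxylase of polyamine synthesis, was at 108, 89.9 and 106 CPM in ST_DL and 83.5, 85.1, 76.4 and 79.5 CPM in HT_DL, a log2 fold change of -0.32 that missed the test (adjusted p = 0.0784 in edgeR). In high light its mean was 83.8 CPM in ST_HL and 120 CPM in HT_HL, and the interaction was -0.83 (adjusted p = 0.021). Plastidial pyruvate kinase, at Solyc08g077180.3.1, was at 6.56, 7.04 and 6.15 CPM in ST_DL and 7.60, 9.20, 8.27 and 8.85 CPM in HT_DL, and at means of 8.16 CPM in ST_HL and 2.72 CPM in HT_HL, with an interaction of 1.95 (adjusted p = 0.022). In both genes the HT_DL libraries lay within a narrow range that did not separate the pairs.

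**Figure D5:**
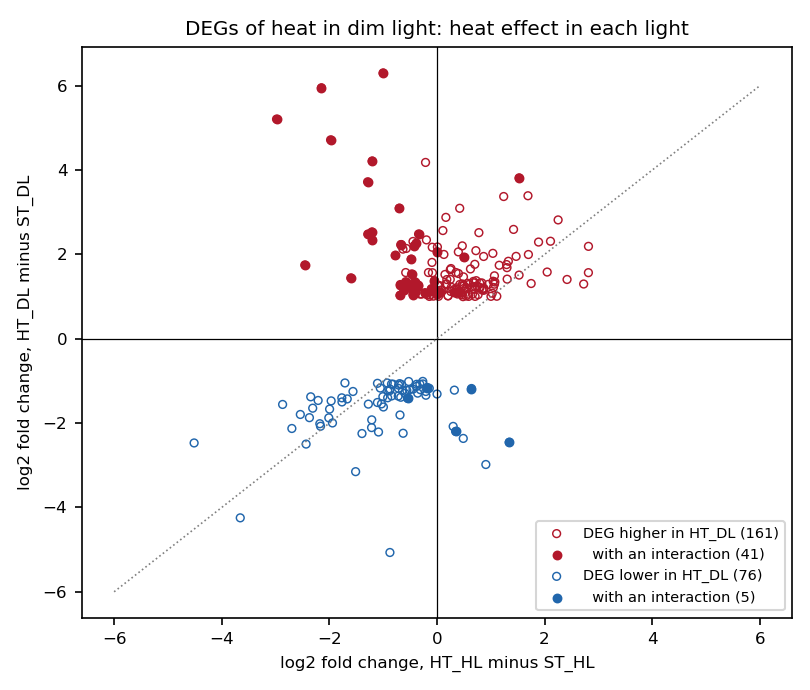
Heat effect in high light (x axis, log2 fold change of HT_HL over ST_HL) and in dim light (y axis, log2 fold change of HT_DL over ST_DL) for the 237 DEGs of dim light, with filled points for the 46 whose interaction passed the adjusted p. Points on the dotted line have equal effects. Genes that fell lie mostly at the lower left, and those that rose lie on both sides of 0 on the x axis.

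In a fit of the endosperm libraries alone, heat in dim light raised 568 of 19185 genes tested (2.96%) and lowered 202 (1.05%). The embryo comparison gave 578 higher and 203 lower in the fit of all 26 libraries. These counts depend on the fit and do not rank the tissues. Of the 136 embryo genes that rose and were tested in the endosperm, 23 rose there and none fell, and of 64 that fell 10 fell and 1 rose. The sign was the same in the endosperm for 88.2% and 84.4% of them, against 68.8% of the 17352 genes tested in both. A test of the difference between the tissues in a fit of all 26 libraries, over 21153 genes, gave 14 genes with a more positive effect in the embryo (0.0662%) and 36 with a more negative one (0.17%). These too moved with single libraries, to between 4 and 16 higher and between 17 and 41 lower when 1 library was left out, and they were 12 and 27 without HT_DL replicates 2 and 3. There were 9 or fewer higher without any 1 ST_DL library of either tissue, any HT_DL endosperm library or HT_DL embryo replicate 2, and 23 or fewer lower without ST_DL embryo replicate 1 or 2, HT_DL endosperm replicate 1 or 2 or any ST_DL endosperm library.

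Glutamate decarboxylase Solyc03g098240.3.1 and serine O-acetyltransferase Solyc02g082850.3.1 fell in the endosperm as well, by 1.12 and 1.00 on the log2 scale (adjusted p = 0.00057 and 0.0035 in edgeR), and Solyc08g062437.1.1 rose by 2.38. The tissues differed at Solyc12g094620.3.1, described above, with a difference of -2.99 on the log2 scale (adjusted p = 0.0066). They differed at arogenate dehydratase, an enzyme of phenylalanine synthesis. Its gene Solyc11g066890.1.1 was at 11.3, 11.2 and 11.4 CPM in ST_DL embryos and 14.9, 10.9, 12.5 and 14.6 CPM in HT_DL embryos, and its endosperm means were 2.55 and 10.5 CPM, a difference of -1.86 (adjusted p = 0.036). N-acetylglutamate kinase of arginine synthesis, at Solyc11g005620.1.1, was at 42.6, 38.7 and 44.5 CPM in ST_DL embryos and 32.7, 35.7, 36.6 and 38.7 CPM in HT_DL embryos, with endosperm means of 6.10 and 9.25 CPM (difference -0.87, adjusted p = 0.0066). In both genes heat raised the endosperm level while the embryo change missed the test. The ndhA splicing factor gene Solyc02g068760.4.1 was at 32.0, 32.5 and 34.7 CPM in ST_DL embryos and 20.0, 19.9, 14.8 and 18.6 CPM in HT_DL embryos. It fell by 0.85 on the log2 scale in the embryo (adjusted p = 0.008 in edgeR, and 0.0508 at -0.78 without HT_DL replicates 2 and 3) and dropped by 2.33 in the endosperm.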

How the data were processed

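The authors quantified reads with Salmon 0.14.1 on the tomato SL4.0 transcripts and deposited expected counts, that is estimated reads per transcript, not normalized, for 33976 IDs. Of the deposited values 10.5% were not whole, and they were rounded. Salmon divides reads among similar transcripts.

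A model with a coefficient for each condition was fitted to the 14 embryo libraries with edgeR 4.0.16 (R 4.3.3, TMM, filterByExpr at a count of 10 and a total of 15, quasi-likelihood F-test, Benjamini-Hochberg over all genes). The biological coefficient of variation was 0.365. CPM are on TMM-adjusted library sizes. Interactions were called by adjusted p below 0.05 alone. Alternatives were DESeq2 1.42.0, limma 3.58.1 voom, RLE, no filter, a replicate block, a surrogate variable (sva 3.50.0), other sets of libraries and leaving out libraries. In data simulated for this comparison (19253 genes), 74% of 100 genes changed 4-fold and 25% of 100 changed 2-fold were called, with 3 false calls. The simulated libraries lacked the split of HT_DL replicates 2 and 3 from 1 and 4, so these rates need not hold for the data.

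Named genes were the 8 largest increases and decreases among DEGs without overlap at 10 CPM or more, the same among annotated DEGs at 2 CPM or more, the 4 smallest p in each gene group and the 4 annotated genes with the smallest p of each interaction. The members, groups and rules were chosen with earlier results of these data known. No ID matched the RefSeq table, so no sequence is printed. Endosperm-rich and embryo-rich genes had at least 10 CPM and at least 20 times the other tissue's highest library in HT_HL. Same-numbered HT_DL and ST_DL libraries had correlations of deviations of -0.328, -0.206 and -0.201. HT_DL replicate 4 gave -0.333 against ST_DL replicate 1, so these values follow the split of the HT_DL libraries. They cannot tell whether same-numbered libraries are pairs. Groups for heat shock proteins and others that needed product names were not used here.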

Additional observations from a re-analysis of the deposited data

Results flagged for a closer look

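In 42 sets of values from the 4 HT_DL embryo libraries, 39 of them named genes, it was asked whether any replicate lay far outside the range of its group. Replicate 1 stood apart in 2 of them, at 51.7 CPM for Solyc08g062340.3.1 and at 38.2 CPM for Solyc01g091260.3.1. Chance alone flags about 1 set in 20, or 2.1 of 42.

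The heat effect differed between dim and high light, by edgeR's interaction test, at 11 of the 39 named genes. The 39 include genes that were named for their small p in this same test, so the count is no finding about them. Among all genes tested 1.71% were higher and 1.55% lower. The differences, dim minus high light on the log2 scale, were 2.29 for Solyc04g082050.3.1, 2.06 for Solyc04g053050.4.1, 1.43 for Solyc03g044060.4.1, 2.90 for Solyc01g011510.4.1 (GO terms of aldehyde dehydrogenase), 2.75 for Solyc07g014640.3.1, 2.01 for Solyc04g055200.3.1 and 1.77 for Solyc02g069420.4.1, all of which rose in dim light. They were -0.84 for Solyc01g008120.4.1, -0.83 for Solyc01g010050.3.1, 1.95 for Solyc08g077180.3.1 and 1.24 for Solyc11g066890.1.1. All these calls are among those that move with single libraries.

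The heat effect in dim light differed between embryo and endosperm at 5 named genes. Here too, genes named for their small p in this same test are included. Among all genes tested 0.0662% were more positive and 0.17% more negative in the embryo. The differences, embryo minus endosperm on the log2 scale, were -2.99 for Solyc12g094620.3.1, 1.43 for Solyc02g068760.4.1, -1.86 for Solyc11g066890.1.1, -0.87 for Solyc11g005620.1.1 and -1.30 for Solyc01g008420.3.1, a gene with GO terms for citrate and iron transport.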

How the results depend on the processing

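Counts are given as higher and then lower. For heat in dim light (161 and 76) they were 754 and 136 with DESeq2, 291 higher with voom, 374 and 481 with no fold threshold, 252 and 165 with a surrogate variable, 578 and 203 in a fit of all 26 libraries, 84 higher in the 2 conditions alone and 723 and 143 there with DESeq2. With the replicate block they were 1084 and 145, and 0 and 0 with the block in the 2 conditions alone. In the latter edgeR gave 2147 and 1873 at an unadjusted p below 0.05. Whether same-numbered libraries are pairs is not known. Without HT_DL replicates 2 and 3 they were 60 and 27, and 142 and 80 without ST_HL replicates 2 and 3 as well. Without HT_DL replicates 1 and 4 they were 1730 and 286. Each pair against ST_DL alone gave 178 and 136 for 1 and 4 and 3147 and 527 for 2 and 3. Leaving out 1 library gave 31 to 250 and 22 to 91, and the libraries of HT_HL and ST_HL were added to this after seeing the data.

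The light interaction (330 and 299) was 2683 and 1564 with DESeq2, 1098 and 1195 with voom, 506 lower with RLE, 90 and 89 with no filter, 3328 and 1578 with the block, 211 and 121 with a surrogate variable, 1 and 0 without HT_DL replicates 2 and 3 (1679 and 1373 at an unadjusted p below 0.05), 4215 and 2238 without 1 and 4, and 1 and 1 without replicates 2 and 3 of HT_DL and ST_HL. Leaving out 1 library gave 0 to 2516 and 0 to 1215. The tissue interaction (14 and 36) was 103 and 214 with DESeq2, 61 and 109 with voom, 32 and 73 with the block, 85 and 134 with a surrogate variable and 138 and 172 without HT_DL replicates 1 and 4, and 4 to 16 and 17 to 41 without 1 library. The tissue ratios without 1 library were 0.588 to 0.805 and 0.790 to 0.876. The cause of these shifts was not tested. For 96 of the genes named by the rules or in the text, there were 2779 values under alternatives. Of these 2184 stayed on their side of the threshold, 539 lost and 48 gained the call, and 8 turned their sign, none of them of a gene called with all libraries. These were Solyc06g059740.4.1 and Solyc09g005110.3.1, at -0.61 and -0.61 with a surrogate variable, -0.76 and -1.69 without HT_DL replicates 2 and 3, -0.76 and -1.70 also without ST_HL replicates 2 and 3, and -0.77 and -1.69 with replicates 1 and 4 against ST_DL alone.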
